A study of Mus musculus with 10 samples.

Results

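Saa3, Lcn2, Hp and Lrg1 are 4 genes of the acute-phase response, the change in secreted proteins that follows tissue injury and inflammation. They are described here in splenic B cells of mice with liver fibrosis, as 4 of the 54532 genes in the deposited count table, matched by gene symbol. All 4 passed the filter on low counts, which kept 14283 genes. The genes were chosen with the comparison of fibrosis and control already known, so their differences between the groups are described without a test, and only other genes are given as tested results.

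RNA was sequenced from mouse splenic B cells in 2 groups of 5 libraries. The fibrosis group came from mice given intraperitoneal carbon tetrachloride, a solvent that injures liver cells and is used to cause liver fibrosis, over 4 weeks. The control group is labelled wildtype, and no genetic change is named for either group. Not given in the sources used here are the strain and age of the mice, any vehicle given to controls, and the method of B cell isolation. The question of the study is which genes these B cells express differently in fibrotic mice. The labels do not say that each library came from its own animal, so a p-value here rests on the variation among libraries, part of which may be technical.

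Acute-phase proteins are made mainly by hepatocytes under control of interleukin-6 and interleukin-1, which act through STAT3, C/EBP and NF-kB transcription factors. Serum amyloid A proteins travel on high-density lipoprotein, and in the mouse Saa1 and Saa2 are the chief liver forms while Saa3 is made mainly outside the liver, in macrophages, fat and epithelia. Lcn2 (lipocalin 2) binds bacterial siderophores and withholds iron, and it is stored in the secondary granules of neutrophils. Hp (haptoglobin) captures free haemoglobin, and Lrg1 is a secreted leucine-rich glycoprotein that modifies TGF-beta signalling in endothelium, and both are made by neutrophils as well as by the liver.

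The promoters of Saa3 and Saa1 are shown because Saa3 was counted in every library while its family member Saa1 was almost uncounted. The sequences are RefSeq's for GRCm38.p6, read 5′ to 3′ on the minus strand, with matches to the motif letters searched in capitals. They stop before the first annotated exon. The Saa3 run is chr7:46715701-46715926, 226 bases, and the Saa1 run is chr7:46742981-46743230, 250 bases.
Saa3: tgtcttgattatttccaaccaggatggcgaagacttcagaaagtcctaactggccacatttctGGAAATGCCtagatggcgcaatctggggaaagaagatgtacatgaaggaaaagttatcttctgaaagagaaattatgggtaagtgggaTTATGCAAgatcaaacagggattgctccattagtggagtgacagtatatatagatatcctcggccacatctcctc
Saa1: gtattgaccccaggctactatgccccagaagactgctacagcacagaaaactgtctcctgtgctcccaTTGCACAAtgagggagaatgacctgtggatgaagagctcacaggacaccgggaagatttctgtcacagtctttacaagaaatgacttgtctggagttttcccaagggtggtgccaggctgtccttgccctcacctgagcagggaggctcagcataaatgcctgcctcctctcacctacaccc

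The motifs were searched on both strands in the 250 bases before each start site. The Saa3 window held a match to the C/EBP-type motif TTGCNNAA, read as TTATGCAA on the printed strand from -99 to -92 relative to the start site. It also held a match to the NF-kB-type motif GGNNTTTCC, read as GGAAATGCC from -187 to -179. The Saa1 window held a C/EBP-type match, TTGCACAA, from -182 to -175. The third motif searched was the STAT type TTCNNNGAA, with no match in either window. Of 32851 promoters of that length, 9.56% held the C/EBP type, 4.93% the NF-kB type and 7.02% the STAT type. A match thus occurs in many promoters and is only a description of the letters. RefSeq promoters were found for 3 of the 4 genes. The Lcn2 window held 1 C/EBP-type match, TTGCTCAA, from -216 to -209, and lies mostly within annotated exons, so it is not printed. The Lrg1 window held none of the motifs.

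Saa3 was higher in fibrosis in every library, and its level spread widely within that group. Saa3 (ENSMUSG00000040026) lies on chromosome 7 from 46711998 to 46715700, minus strand, GRCm38, and has 4 exons in its principal transcript. Its level was 12.1, 6.90, 17.5, 36.1 and 47.8 CPM (counts-per-million, with library sizes scaled by TMM) in fibrosis libraries 1 to 5. In control libraries 1 to 5 it was 1.37, 1.65, 0.479, 0.905 and 0.424 CPM. All 5 fibrosis libraries lay above all 5 controls, with fibrosis 5 and fibrosis 4 the highest and fibrosis 2 the lowest of the group. Among all tested genes 11.4% had all 5 fibrosis libraries above all 5 controls, and nothing is read from this for a gene chosen by the same contrast.

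The 5 fibrosis libraries averaged 24.1 ± 17.2 CPM of Saa3 and the 5 controls 0.965 ± 0.540 CPM (SD). The fitted log2 difference was 4.62 ± 0.60 (SE). Per length, the deposited FPKM gave 8.97 ± 6.19 in fibrosis and 0.370 ± 0.208 in control. Counting error is given for the lowest fibrosis library and the highest control. Fibrosis 2 held 112 Saa3 counts, an exact 95% interval of 5.41 to 7.91 CPM by the unscaled library total, while control 2 held 30, an interval of 1.16 to 2.44. These intervals cover counting error only, and they are no test of a gene chosen by this contrast. Without fibrosis 4 and 5, which hold the most mature neutrophil and platelet marker counts, the difference was 3.65 on the log2 scale.

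Saa3 held nearly all counts of its family. Saa1 had 3 counts in the fibrosis group, all in fibrosis 4, and 0 in control. Saa2 had 8 counts, spread over 4 fibrosis libraries, and 0 in control. Saa4 had 0 counts in either group, which allows up to 0.0374 CPM over the fibrosis group and 0.0348 over the control group. The Saa3 group totals were 1793 and 87 counts. Of the 31-base words in Saa3 transcripts (GENCODE M21), 1.08% also occur in Saa1 and 0.424% in Saa2, while 46.0% of Saa1 words occur in Saa2. Reads could be split between Saa1 and Saa2, whose values are therefore uncertain, and few Saa3 reads could be.

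**Figure D1:**
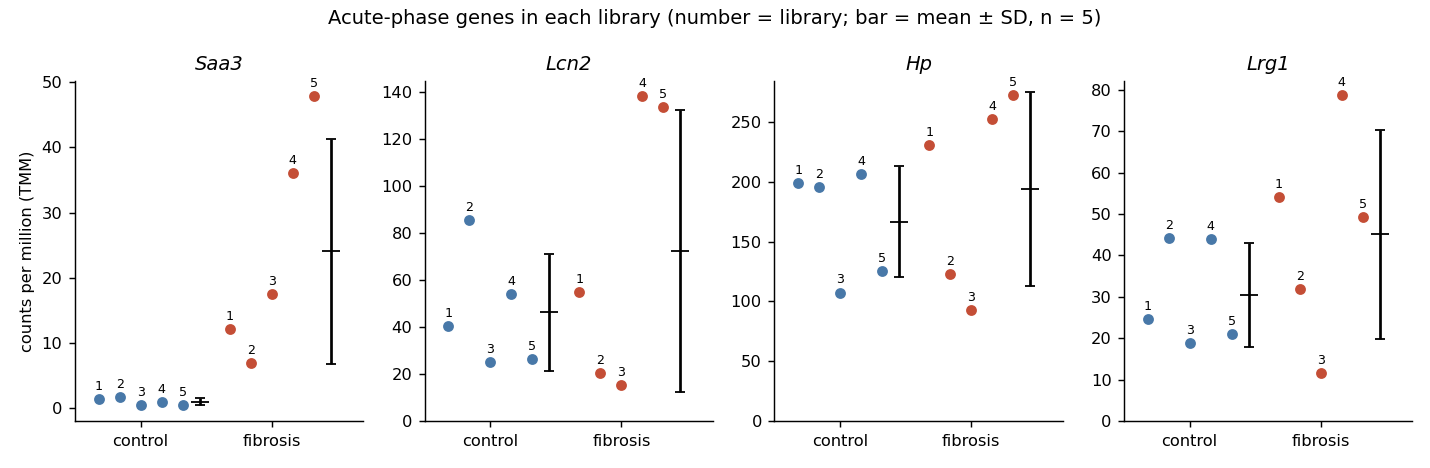
Level of each acute-phase gene in each library, in CPM scaled by TMM. Points are libraries with their replicate number, and the bar is the mean ± SD of 5 libraries. Saa3 in fibrosis runs from 6.90 to 47.8, above every control, while the other genes overlap between the groups.

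Lcn2 did not separate the groups, and its spread was far wider in fibrosis than in control. Lcn2 (ENSMUSG00000026822) lies on chromosome 2 from 32384633 to 32388252, minus strand, with 6 exons in its principal transcript. Its level was 54.7, 20.5, 15.1, 139 and 134 CPM in fibrosis libraries 1 to 5, and 40.3, 85.6, 24.9, 54.2 and 26.2 CPM in control libraries 1 to 5. Fibrosis 4 and 5 lay above every control, and fibrosis 2 and 3 lay below every control. Lcn2 averaged 72.5 ± 60.0 CPM in the 5 fibrosis libraries and 46.3 ± 25.0 CPM in the 5 controls (SD), a log2 difference of 0.65 ± 0.62 (SE). Without fibrosis 4 and 5 the difference turned to -0.61. The range from the lowest to the highest library was 9.15-fold in fibrosis and 3.44-fold in control.

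Hp was the most abundant of the genes per length and had the smallest fitted difference between the groups. Hp (ENSMUSG00000031722) lies on chromosome 8 from 109575128 to 109579172, minus strand, with 5 exons in its principal transcript. Its level was 231, 123, 92.9, 252 and 273 CPM in fibrosis libraries 1 to 5, and 199, 196, 107, 206 and 126 CPM in control libraries 1 to 5. Fibrosis 1, 4 and 5 were above every control, fibrosis 3 was below every control and fibrosis 2 lay within the control range. The means were 194 ± 81.0 and 167 ± 46.5 CPM (SD, n = 5 each), a log2 difference of 0.22 ± 0.31 (SE), which was -0.15 without fibrosis 4 and 5.

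Lrg1 followed the same broad order with 1 exception. Lrg1 (ENSMUSG00000037095) lies on chromosome 17 from 56119678 to 56122001, minus strand, with 2 exons. Its level was 54.1, 31.9, 11.5, 78.8 and 49.2 CPM in fibrosis libraries 1 to 5, and 24.6, 44.2, 18.9, 44.0 and 20.96 CPM in control libraries 1 to 5. Fibrosis 1, 4 and 5 were above every control and fibrosis 3 below every control, but fibrosis 5, the highest library for Saa3 and Hp, came after fibrosis 4 and 1. The means were 45.1 ± 25.2 and 30.5 ± 12.6 CPM (SD, n = 5 each), a log2 difference of 0.56 ± 0.43 (SE), which was 0.10 without fibrosis 4 and 5.

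Compared per length, the order of the mean deposited FPKM in control was Hp, Lrg1, Lcn2 and Saa3, at 104 ± 29.4, 21.7 ± 8.97, 17.6 ± 9.58 and 0.370 ± 0.208 (SD, n = 5 each). In fibrosis it was Hp, Lrg1, Lcn2 and Saa3 again, at 119 ± 48.3, 31.5 ± 17.7, 26.9 ± 21.9 and 8.97 ± 6.19. Lrg1 and Lcn2 were neighbours that did not differ beyond their spread in either group. Saa3 had the lowest mean FPKM in fibrosis too, although in fibrosis 3 it was above Lcn2 and near Lrg1, at 6.65, 5.70 and 8.06 FPKM for Saa3, Lcn2 and Lrg1.

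Libraries of a spleen preparation can hold RNA of cells other than B cells. B cell markers were high in every library, with Cd79a at 1995 ± 410 CPM over fibrosis libraries and 1623 ± 46.7 CPM over controls (SD, n = 5). Markers of other cells were also present, so the cell source of the acute-phase transcripts was not resolved. In bulk RNA, fewer cells of a type and less RNA per cell cannot be told apart. Total counts ranged from 13439100 to 17069393 in fibrosis and from 15912080 to 17954551 in control. By edgeR's quasi-likelihood test at an adjusted p under 0.05, 18.6% of tested genes were called higher (2654) and 17.2% lower (2451) in fibrosis. With library size as the only scaling these became 1777 higher and 3306 lower, and the median gene moved by -0.11 on the log2 scale. Without fibrosis 4 and 5, 2688 genes were called higher and 2743 lower. Each count of called genes in a list below is to be read beside the 18.6% and 17.2%.

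The neutrophil gene S100a8, a calcium-binding alarmin, was ordered differently from Saa3 across the fibrosis libraries. S100a8 was 347, 160, 90.3, 1385 and 1969 CPM in fibrosis libraries 1 to 5, and 212, 359, 112, 287 and 132 CPM in control libraries 1 to 5. Fibrosis 3 had the lowest S100a8 of all 10 libraries and the third highest Saa3. The log2 difference of S100a8 was 1.84 ± 0.78 (SE) with an adjusted p of 0.0919 by edgeR, and the groups overlapped. It passed the threshold without fibrosis 3, at 2.09 (adjusted p = 0.0391 by edgeR), and was -0.13 without fibrosis 4 and 5 (adjusted p = 0.868 by edgeR).

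Saa3 was higher in fibrosis relative to S100a8 as well. Per 1000 S100a8 counts, Saa3 gave 34.9, 43.0, 194, 26.1 and 24.3 counts in fibrosis libraries 1 to 5 and between 3.15 and 6.46 in control. All 5 fibrosis libraries were above all 5 controls by this ratio, fibrosis 3 the furthest. In the 2 libraries with the most S100a8 the ratio was the lowest of the fibrosis group, though still above every control. The ratio to Ngp, a secondary granule protein, ran from 113 to 600 per 1000 in fibrosis and from 6.50 to 13.2 in control.

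Lcn2 behaved differently, with a direction that depended on the neutrophil gene it was set against. Per 1000 S100a8 counts, Lcn2 gave 158, 128 and 168 counts in fibrosis 1, 2 and 3, fewer in fibrosis 4 and 67.9 in fibrosis 5, and between 189 and 238 in control, so all 5 fibrosis libraries were below all 5 controls. Per 1000 counts of Ngp it gave 474 to 753 in fibrosis and 378 to 446 in control, and per 1000 counts of Ltf (lactoferrin, another secondary granule protein) 791 to 1133 and 552 to 688. By these ratios all 5 fibrosis libraries were above all 5 controls. The control ratios were tight, spanning 1.18-fold against Ngp and 1.25-fold against Ltf, while Lcn2 itself spanned 3.44-fold. A ratio shows only that the 2 genes changed unequally.

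Hp and Lrg1 kept no constant ratio to S100a8 in fibrosis. Hp per 1000 S100a8 counts was 664, 765, 1028, 182 and 139 in fibrosis libraries 1 to 5 and 545 to 962 in control. Lrg1 per 1000 S100a8 counts was 156, 199, 127, 56.9 and 25.0 in fibrosis and 116 to 169 in control. For both genes fibrosis 4 and 5, which had the most S100a8, were below every control, and 1 other fibrosis library was above every control.

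**Figure D2:**
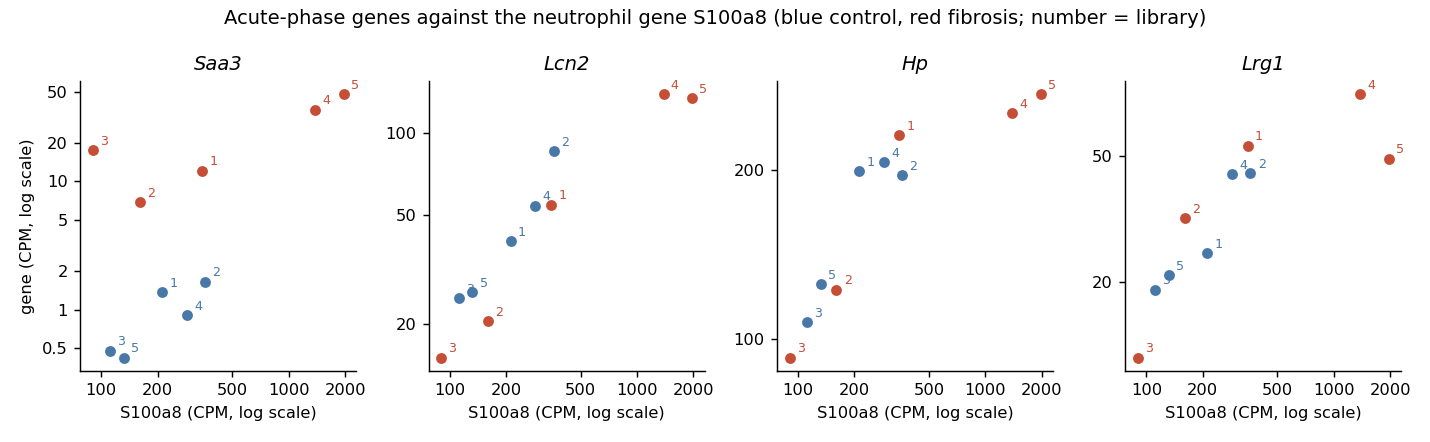
Level of each acute-phase gene against S100a8 in the same library, both in CPM on log axes, with control in blue and fibrosis in red and the replicate number beside each point. Lcn2 points of both groups lie near 1 band, with the fibrosis points at or under it, whereas the fibrosis points of Saa3 lie above its control points at every S100a8 level.

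Itga2b, the integrin alpha subunit that marks platelets and megakaryocytes, separated the groups. It was 107, 136, 255, 432 and 463 CPM in fibrosis libraries 1 to 5 and 64.9, 62.1, 69.7, 67.2 and 52.8 CPM in control libraries 1 to 5. Its log2 difference was 2.14 ± 0.38 (SE; adjusted p = 0.00131 by edgeR), and 19 of 19 tested platelet markers were called higher, with a median of 2.03 beside 0.05 over all tested genes. The summed platelet list was 703 to 2375 CPM in fibrosis and 415 to 517 CPM in control. Saa3 per 1000 Itga2b counts was 113, 50.8, 68.8, 83.6 and 103 in fibrosis libraries 1 to 5 and between 6.87 and 26.6 in control, so its fibrosis values were above every control by this ratio too. Lcn2, Hp and Lrg1 per 1000 Itga2b counts were lower than every control in 4 of 5 fibrosis libraries each, and fibrosis 1 was the exception for all of them. The part of platelet RNA in these values was not tested.

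**Figure D3:**
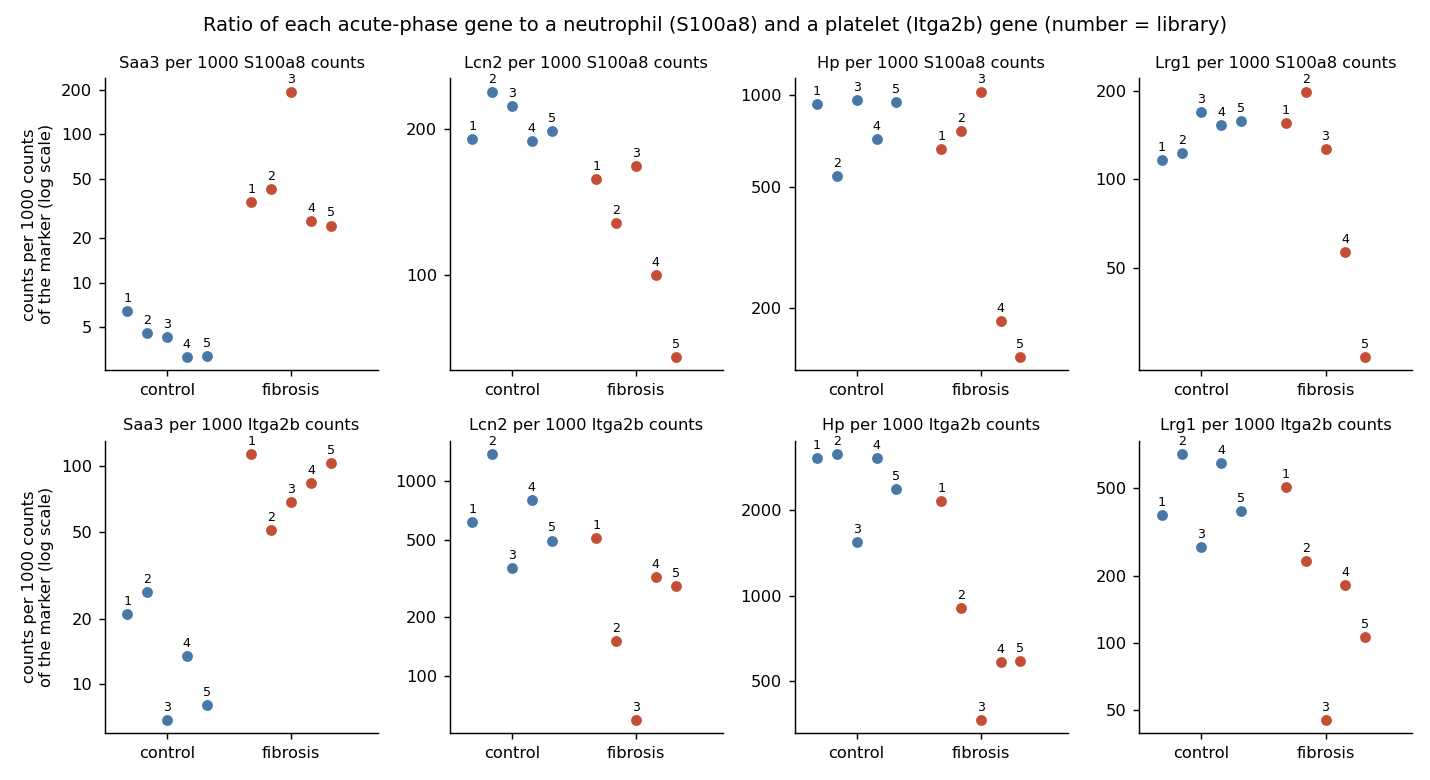
Counts of each acute-phase gene per 1000 counts of S100a8 (upper row) and of Itga2b (lower row), on log axes, 1 point per library with its replicate number. Saa3 ratios in fibrosis are above every control in both rows, at 24.3 to 194 and 50.8 to 113, and Lcn2 ratios to S100a8 in fibrosis are below every control.

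The neutrophil lists did not move as one. The median log2 difference of the 22 tested mature neutrophil genes was 0.74 beside 0.05 over all tested genes. Of these genes 4 were called higher and 0 lower in fibrosis, beside 18.6% and 17.2% over all tested genes. Those that rose were Cxcl2, a neutrophil-attracting chemokine that macrophages also make (2.45 ± 0.55), Clec4e, the receptor Mincle (1.69 ± 0.42), Trem1, an amplifying receptor (0.94 ± 0.29), and Pglyrp1, a peptidoglycan-binding granule protein (0.65 ± 0.18), given as log2 ± SE. Their adjusted p-values by edgeR were 0.00396, 0.00885, 0.0234 and 0.0120. Trem1 lost its call when fibrosis 4, fibrosis 5, control 1 or control 5 was left out (highest adjusted p = 0.0615 by edgeR), and without both fibrosis 4 and 5 it was 0.34 (adjusted p = 0.196 by edgeR) and Pglyrp1 0.49 (adjusted p = 0.0509 by edgeR). Without those libraries the list median was -0.26. The log2 differences of Cxcl2 and Clec4e then were 1.52 and 0.85, still called (adjusted p = 0.0255 and 0.0146 by edgeR).

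Of 10 tested secondary granule genes, the group in which Lcn2 is stored, 1 was called higher and 0 lower. It was Cybb, the phagocyte oxidase subunit (0.46 ± 0.10, adjusted p = 0.00380 by edgeR), which B cells also express. Ngp, Ltf and Camp, a cathelicidin, had log2 differences of 0.32 ± 0.69, 0.13 ± 0.65 and 1.23 ± 0.80 (SE) and were not called. They turned to -1.10, -1.10 and -0.94 without fibrosis 4 and 5, still not called, and the median of the secondary granule list turned from 0.34 to -0.69, with Cybb still called and Lyz2, a lysozyme gene that macrophages share, called lower (-0.87, adjusted p = 0.0397 by edgeR). Of 10 tested primary granule and precursor genes, Prom1 was called higher (2.13 ± 0.50, adjusted p = 0.00568 by edgeR; 1.30 without fibrosis 4 and 5) and Gfi1, a repressor in granulocyte development, lower (-1.26 ± 0.20, adjusted p = 0.000470 by edgeR). Mpo, the myeloperoxidase gene, was at -0.92 ± 0.43 and was not called (adjusted p = 0.121 by edgeR), but it passed without fibrosis 1, at -1.47 (adjusted p = 0.00460 by edgeR). The summed mature list was 394 to 4447 CPM in fibrosis and 606 to 1317 CPM in control. The summed secondary granule list was 1343 to 4001 CPM in fibrosis and 2313 to 3646 CPM in control. Lyz2 made up most of the secondary granule sum, at 744 to 2356 CPM in fibrosis and 1726 to 2864 CPM in control. It is counted in the macrophage sum below as well. The part of neutrophil RNA in the levels of Lcn2, Hp and Lrg1 was not tested.

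Macrophages are another known source of Saa3. Of 21 tested monocyte and macrophage genes, 1 was called higher and 1 lower, and the summed list was 2150 to 7489 CPM in fibrosis and 3663 to 5953 CPM in control. Fibrosis 1, 2 and 3 were below every control by this sum, and fibrosis 4 and 5 above. The part of macrophage RNA in the Saa3 values was not tested. Siglec1, the marker of marginal metallophilic macrophages, was the gene called lower (-1.38 ± 0.37, adjusted p = 0.0132 by edgeR; -2.16 without fibrosis 4 and 5). The gene called higher was Marco, a scavenger receptor of marginal zone macrophages, at 2.32 ± 0.78 (adjusted p = 0.0398 by edgeR).

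Marco, like Saa3, was highest in fibrosis 5 and 4. It was 11.9, 7.95, 32.3, 70.4 and 107 CPM in fibrosis libraries 1 to 5, and 3.66, 25.0, 5.90, 6.28 and 4.85 CPM in control. Fibrosis 1 and 2 lay within the control range, whose top was control 2, and so the groups overlapped. The Marco call ended when fibrosis 3, 4 or 5, or control 1, 3, 4 or 5, was left out (adjusted p of 0.0546 to 0.126 by edgeR), and without both fibrosis 4 and 5 it was 0.94 (adjusted p = 0.359 by edgeR). Leaving out both libraries, 0 of 21 tested macrophage genes were called higher and 14 lower. That fit called 2688 genes higher and 2743 lower over all tested genes.

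Alb, the albumin gene and a marker of hepatocytes, was at trace level and higher in fibrosis. It was 2.81, 0.801, 1.26, 1.19 and 1.56 CPM in fibrosis libraries 1 to 5 and 0.164, 0.330, 0.106, 0.0566 and 0.0606 CPM in control. Every fibrosis library was above every control, with a log2 difference of 3.33 ± 0.49 (SE; adjusted p = 0.000225 by edgeR). The order of Alb was not that of Saa3, since fibrosis 1 had the most Alb and fibrosis 5 the most Saa3. Only 2 of 14 hepatocyte genes passed the filter, Alb and Trf (transferrin, -0.18 ± 0.48, not called but lower without fibrosis 4 and 5, -1.15, adjusted p = 0.0413 by edgeR), and the group totals of Apoa1, Ttr and Ahsg were 39, 11 and 14 counts in fibrosis and 11, 1 and 7 in control. The part of liver RNA in the acute-phase values was not tested.

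Most mesothelial and stromal markers were scarce. Msln, which marks mesothelium, had 10 counts in fibrosis and 4 in control, and Upk3b 9 and 4. The summed mesothelial list was 27.3 to 144 CPM in fibrosis and 44.9 to 79.9 CPM in control, most of it Slpi, a protease inhibitor that neutrophils and macrophages also make. Of 6 tested stromal and endothelial genes, 0 were called higher and 2 lower, Eng and Egfl7 (-1.48), both listed here as endothelial markers. Lum and Ccl21a were at 0 in all libraries. Eng was not scarce and made up most of the stromal sum in control, at 48.4 to 61.2 of 78.5 to 99.8 CPM. The cells that its counts came from were not resolved.

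**Figure D4:**
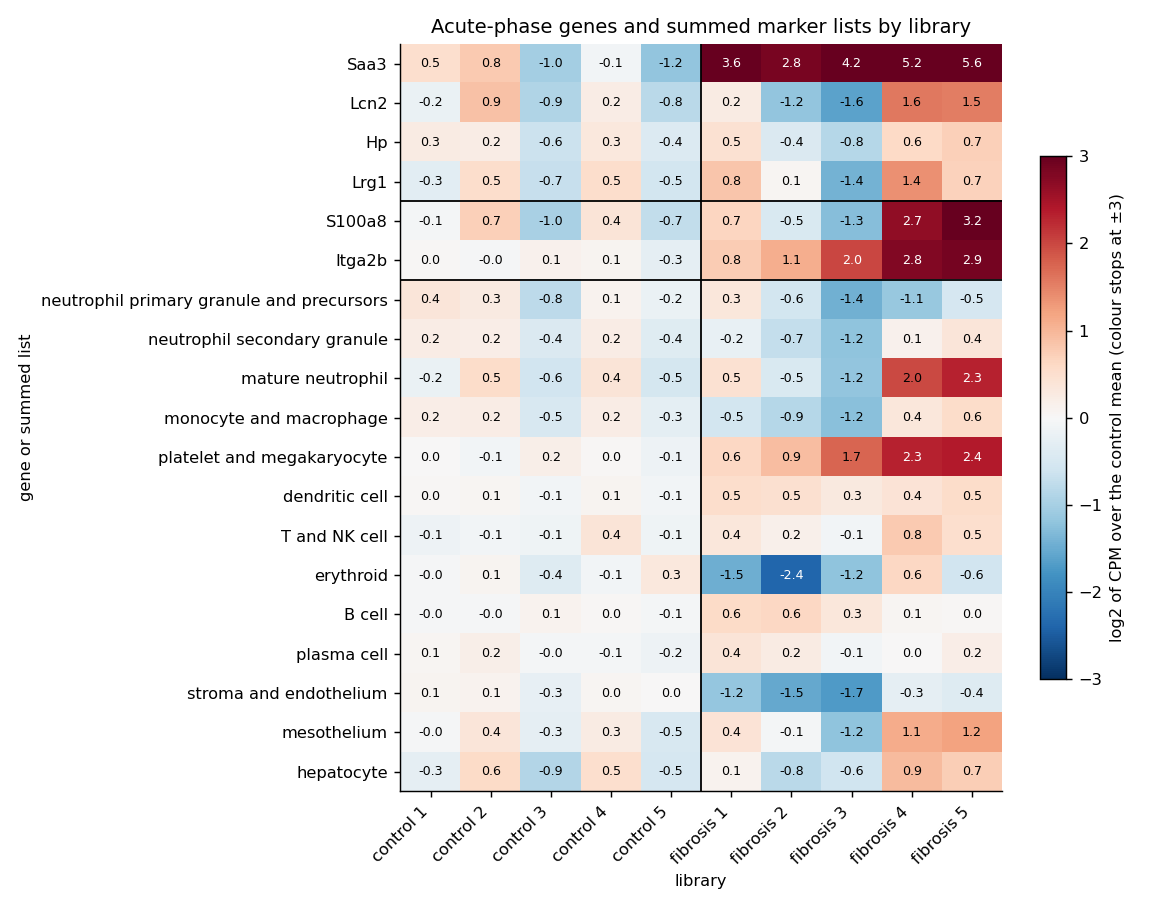
Log2 of the CPM in each library over the control mean, for the acute-phase genes, S100a8, Itga2b and the summed marker lists (rows), with libraries in columns and the colour scale stopped at 3 in either direction. Saa3 is raised in every fibrosis column, platelet markers likewise, and the mature neutrophil and macrophage sums are lowest in fibrosis 3 and highest in fibrosis 4 and 5.

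The pattern of each gene over libraries was compared with that of 10752 protein-coding genes, by Pearson's r of log2 CPM after subtracting each group's mean. This describes the spread within groups over 10 libraries that share depth and cell content with every gene in them, and it does not use the difference between groups. Lcn2 was closest to genes of neutrophil granules, with r of 0.993 for Ngp, 0.992 for Ltf and 0.990 for Retnlg, followed by Dmxl2 (0.988) and S100a9 (0.981). S100a8 was the tenth nearest to Lcn2, at 0.978. For Hp the nearest were Myd88 (0.996), an adaptor of Toll-like receptors, Rab31 (0.989), Gsr (0.987), Arl11 (0.984) and the leukotriene receptor Ltb4r1 (0.981), and S100a8 was at 0.903.

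For Lrg1 the nearest genes were Drap1 (0.985), Prkch (0.983), Slc16a3 (0.982), Sec14l1 (0.980) and Fam234a (0.978), with S100a8 at 0.828. Saa3 had looser neighbours, P2rx4 (0.959), Nudt17 (0.957), Arhgef4 (0.946), Abhd4 (0.946) and Tmem158 (0.940). Its r with S100a8 was 0.792, with Itga2b 0.774 and with the macrophage marker Adgre1 0.856 over the 10 libraries, and S100a8 ranked 560 among the 10752 genes. The neutrophil granule genes Ngp, Ltf and Camp were at 0.830, 0.814 and 0.813. By correlation of ranks instead, S100a8 was at 0.855, Adgre1 at 0.842 and Itga2b at 0.636, so the order depended on the measure. Over the 5 fibrosis libraries alone the order differed, with r of 0.916 for Itga2b, 0.924 for the platelet gene Pf4, 0.851 for Adgre1 and 0.800 for S100a8. The erythroid gene Alas2 was at 0.886 and the macrophage gene C1qa at 0.867, so a high r was not particular to platelet genes. Among the genes themselves, r over the 10 libraries was 0.793 for Saa3 and Lcn2, 0.688 for Saa3 and Hp and 0.445 for Saa3 and Lrg1, and between 0.876 and 0.924 for the pairs among Lcn2, Hp and Lrg1. Of the neighbours of Saa3, Nudt17 was called higher in fibrosis (1.49 ± 0.28 on the log2 scale, adjusted p = 0.00128 by edgeR; 1.04 without fibrosis 4 and 5).

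The other acute-phase genes mostly did not follow Saa3. Of 34 listed, 12 were tested, and 2 were called higher and 1 lower, beside 18.6% and 17.2% over all tested genes. The median log2 difference of the 12 was 0.26 beside 0.05 over all tested genes. Serpina3g, a cathepsin inhibitor of the antichymotrypsin family that lymphocytes express, averaged 311 ± 66.1 CPM over the fibrosis libraries and 139 ± 15.2 CPM over the controls (SD, n = 5). Its log2 difference was 1.16 ± 0.14 (SE; adjusted p = 6.2e-05 by edgeR), and no fibrosis library overlapped a control. C4b, a complement component, was 1.55 ± 0.42 (adjusted p = 0.0135 by edgeR), but without fibrosis 4 and 5 it was 0.86 and lost its call (adjusted p = 0.0642 by edgeR), as it did with the replicate block, without the filter on low counts and by limma on log2(FPKM + 0.1) with no filter. C3, the central complement component, was lower, at -0.72 ± 0.20 (adjusted p = 0.0147 by edgeR).

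Several liver acute-phase genes were almost uncounted, while C3, C4b, Mt1, Hp, Lrg1 and Lbp were among the exceptions. Lbp had 454 counts in fibrosis and 819 in control and was not called (-0.65 ± 0.37, adjusted p = 0.190 by edgeR). Crp, the C-reactive protein gene, had 5 counts in fibrosis and 0 in control. The fibrinogen genes Fga, Fgb and Fgg had 9, 5 and 3 counts in fibrosis and 1, 3 and 2 in control. Orm1, an orosomucoid gene, had 73 and 28 counts, while Orm2 was tested and not called, at 0.941 ± 0.276 CPM over fibrosis libraries and 0.947 ± 0.296 CPM over controls (SD, n = 5). Slpi (0.51 ± 0.39), Cp, the copper carrier ceruloplasmin (0.95 ± 0.55), and Mt1, a metallothionein (-0.87 ± 0.32), were not called. Slpi turned to -0.15 and Cp to -0.07 without fibrosis 4 and 5, and the median of the acute-phase list turned to -0.15. Mt1, whose adjusted p was 0.0550 by edgeR, passed the threshold in 7 alternatives. These were library size as the only scaling, DESeq2, limma on log2(FPKM + 1) and on log2(FPKM + 0.1) with the filter, the replicate block, leaving out fibrosis 4 (-1.29, adjusted p = 0.000500 by edgeR) and leaving out fibrosis 4 and 5 (-1.43, adjusted p = 0.000273 by edgeR).

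Genes for receptors and partners of these proteins were called in both directions, at about the shares over all tested genes. Of 18 tested, 3 were called higher and 4 lower, beside 18.6% and 17.2% over all tested genes. Their median log2 difference was 0.24, and -0.05 without fibrosis 4 and 5. Eng (endoglin), a TGF-beta co-receptor that Lrg1 binds, averaged 12.5 ± 3.95 CPM over fibrosis libraries and 54.8 ± 5.27 CPM over controls (SD, n = 5), a log2 difference of -2.13 ± 0.18 (SE; adjusted p = 1.4e-05 by edgeR). Tgfbr1 (0.46 ± 0.13) and Smad1 (0.40 ± 0.11), of the same signalling route, were higher (adjusted p = 0.0119 and 0.0111 by edgeR). Smad1 was not called with library size as the only scaling (0.29, adjusted p = 0.0542 by edgeR). Tgfbr2 (0.32 ± 0.13), Acvrl1 (0.27 ± 0.18) and Smad5 (-0.04 ± 0.10), also of that route, were not called (adjusted p = 0.0696, 0.248 and 0.790 by edgeR). Eng was thus lower in all 5 fibrosis libraries, including those with more Lrg1 than any control.

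Among receptors that bind serum amyloid A, Cd36 was higher (0.53 ± 0.12, adjusted p = 0.00450 by edgeR) and Scarb1, the high-density lipoprotein receptor, lower (-0.72 ± 0.13, adjusted p = 0.00117 by edgeR). P2rx7 was also lower (-0.52 ± 0.15, adjusted p = 0.0175 by edgeR), while Tlr2 (0.01 ± 0.18) and Tlr4 (0.36 ± 0.18) were not called, although Tlr4 passed without fibrosis 1 (0.48, adjusted p = 0.0355 by edgeR). The formyl peptide receptor gene Fpr2, also a neutrophil marker, was at 1.36 ± 0.52 and was not called (adjusted p = 0.0622 by edgeR), but it passed without fibrosis 1 or fibrosis 2 (adjusted p = 0.0409 and 0.0317 by edgeR). Cd163, the receptor for haptoglobin bound to haemoglobin, was at -0.32 ± 0.40 and was not called (adjusted p = 0.581 by edgeR). Without fibrosis 4 and 5 it was -1.31 (adjusted p = 7.9e-05 by edgeR). Slc22a17, described as an Lcn2 receptor, was at 0.32 ± 0.26 and was not called (adjusted p = 0.362 by edgeR), and the scavenger Lrp1 was lower (-0.78 ± 0.20, adjusted p = 0.0101 by edgeR).

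Of the pathways that drive acute-phase genes in liver, part of the interleukin-6 route was higher. Of 12 tested genes of this list, 5 were called higher and 0 lower, while the median was -0.0024. Socs3, the feedback inhibitor that STAT3 induces, averaged 68.0 ± 12.1 CPM over fibrosis libraries and 36.1 ± 4.48 CPM over controls (SD, n = 5), with no overlap. Its log2 difference was 0.91 ± 0.13 (SE; adjusted p = 0.000207 by edgeR), and 0.83 without fibrosis 4 and 5. Jak2 (0.64 ± 0.10), Bcl3 (0.58 ± 0.10), Stat3 (0.42 ± 0.09) and Jak1 (0.38 ± 0.11) were the others, at adjusted p-values by edgeR of 0.000374, 0.000823, 0.00266 and 0.0151. Il6 itself had 9 counts in fibrosis and 3 in control, and its receptor gene Il6ra was at -0.12 ± 0.12, not called. Jak1 lost its call without fibrosis 3 (adjusted p = 0.0503 by edgeR). With library size as the only scaling 4 of these genes were called higher, without Jak1, and Ptpn11, a phosphatase of the route, lower.

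Of 7 tested genes of the C/EBP list, 1 was called higher (0.32 ± 0.11, adjusted p = 0.0409 by edgeR). It was Cebpz, which has the C/EBP name but lies outside that protein family. Leaving out fibrosis 2, fibrosis 3, control 1, control 2, control 4 or control 5 ended that call (adjusted p of 0.0583 to 0.128 by edgeR). Cebpb and Cebpd, which act on acute-phase promoters, were at 0.09 ± 0.26 and 0.16 ± 0.36 and were not called.

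Of 23 tested genes of interleukin-1, TNF and NF-kB signalling, 4 were called higher and 2 lower, with a median log2 difference of 0.28. Over all tested genes 18.6% were called higher and 17.2% lower. Relb, an NF-kB subunit, was higher (0.67 ± 0.07, adjusted p = 3.7e-05 by edgeR), and so was Il1rap, the shared receptor subunit (0.49 ± 0.13, adjusted p = 0.0120 by edgeR). Il1rap was not called without the filter on low counts or by limma on log2 FPKM with either pseudocount (highest adjusted p = 0.0938). The NF-kB inhibitor genes Nfkbia (0.28 ± 0.09) and Tnfaip3 (0.28 ± 0.10) were the other calls, at adjusted p-values of 0.0303 and 0.0483 by edgeR, of which Nfkbia kept its call only without fibrosis 3, fibrosis 4 or control 5 among the fits that left out 1 library and Tnfaip3 only without fibrosis 4 (highest adjusted p = 0.0886 and 0.128 by edgeR). The receptor gene Il1r1 was lower (-1.40 ± 0.24, adjusted p = 0.000714 by edgeR), and so was Tnf (-0.49 ± 0.17, adjusted p = 0.0383 by edgeR), whose call ended when fibrosis 1, 2 or 4, or control 1, 3, 4 or 5, was left out (highest adjusted p = 0.0938 by edgeR). Il1b was 41.9, 32.2, 28.6, 107 and 105 CPM in fibrosis libraries 1 to 5 and 17.3 to 41.3 CPM in control, and was not called (1.02 ± 0.40, adjusted p = 0.0691 by edgeR). It was high in fibrosis 4 and 5, like Lcn2 and S100a8, and passed without fibrosis 2 or fibrosis 3 (adjusted p = 0.0486 and 0.0416 by edgeR). Without fibrosis 4 and 5 it was 0.15 (adjusted p = 0.657 by edgeR), and 9 genes of the list were called higher and 2 lower. That fit called 2688 genes higher and 2743 lower over all tested genes.

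**Figure D5:**
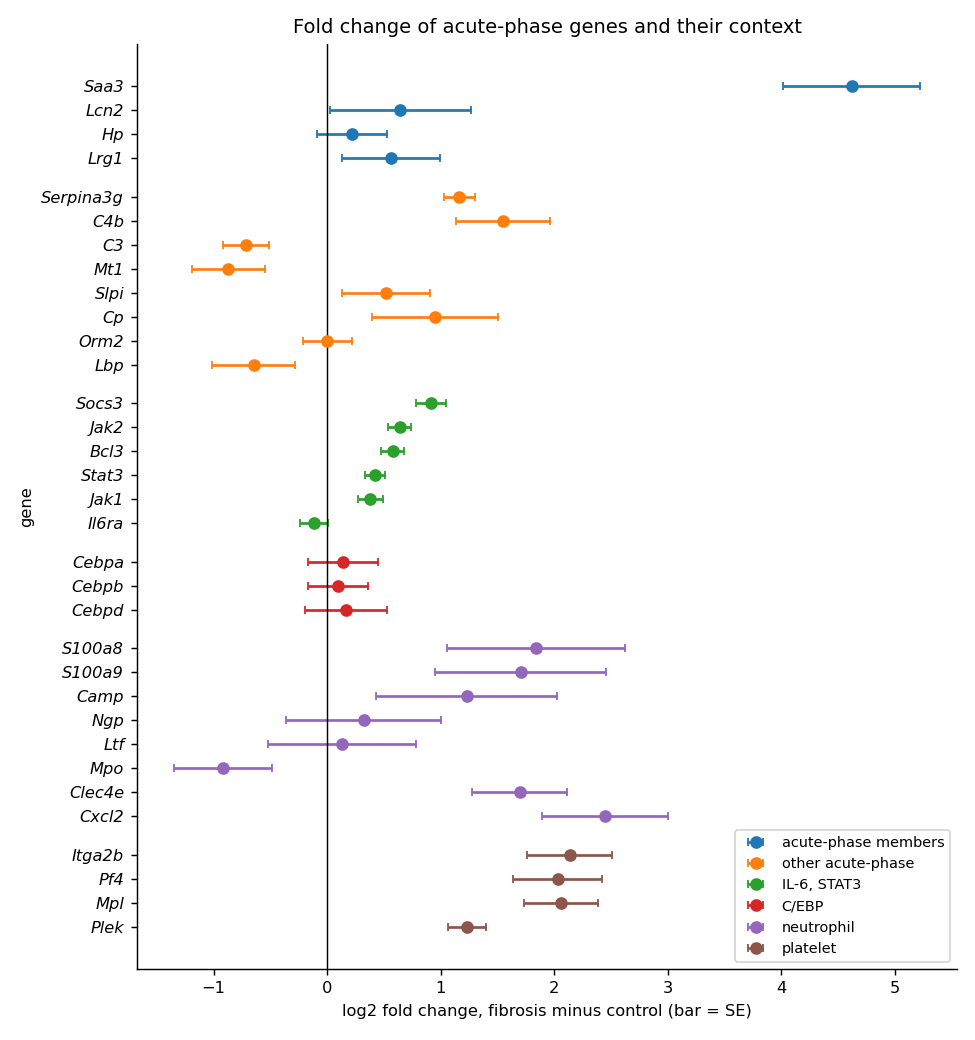
Fitted log2 difference, fibrosis minus control, with its SE as the bar, for the acute-phase genes, other acute-phase genes, interleukin-6 and STAT3 genes, C/EBP factors and neutrophil and platelet genes. Saa3 at 4.62 stands to the right of every other gene drawn, and Lcn2, Hp and Lrg1 lie between 0.22 and 0.65.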

How the data were processed

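Libraries were grouped by the labelled disease state. Per the labels' protocols, poly-A RNA was selected on poly-T beads. The authors deposited whole-number read counts per gene, which are not normalised, and FPKM, counts relative to gene length and library size. The submitters' processing notes name GRCm38 (mm10). Not given in the sources used here: aligner, counter, and whether counting was stranded. From the counts, filterByExpr of edgeR 4.0.16 in R 4.3.3 retained 14283 genes, holding 99.85% of counts. edgeR scaled libraries by TMM and compared groups by its quasi-likelihood test with Benjamini-Hochberg adjustment. SE is the absolute log2 difference divided by the root of the test's F. The code was tested on simulated counts. CPM uses the TMM library size.

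The 4 acute-phase genes and the 18 gene lists (285 symbols) were chosen with earlier results of these data known. The rule named these 4, S100a8, Itga2b, 27 further genes whatever their values, up to 4 genes per list with the smallest p, and 5 genes nearest each of the 4 (mean of at least 2 CPM); some of these are not reported here. Jak1, Tgfbr1, Smad1, P2rx7, Tnfaip3, Tnf, Ptpn11, Cp, Orm2, Lbp, Tlr2, Tlr4, Apoa1, Ttr, Ahsg, Crp, Alas2, C1qa and the fibrinogen genes were named after their values were seen. Tgfbr2, Acvrl1 and Smad5 were added in the same way. Alternatives were other scalings and filters, DESeq2 1.42.0, limma 3.58.1 on log2(FPKM + 1) and log2(FPKM + 0.1), a replicate block, and leaving out libraries.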

Additional observations from a re-analysis of the deposited data

How the results depend on the processing

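Over 21 alternatives the log2 difference of Saa3 was above 0 in 21, of Lrg1 in 21, of Lcn2 in 20 and of Hp in 20. Leaving out 1 library at a time gave 4.21 to 4.90 for Saa3, 0.27 to 0.99 for Lcn2, 0.07 to 0.38 for Hp and 0.26 to 0.79 for Lrg1. Leaving out fibrosis 4 and 5 moved Saa3 to 3.65 and Lcn2 to -0.61, and the cause was not tested. On log2(FPKM + 1) Saa3 was 2.63, because the pseudocount exceeds its control FPKM. With limma on log2(FPKM + 0.1) and no filter, 1060 genes were called higher and 1472 lower, where many more genes with low values are tested. Without 1 library, 2052 to 2914 genes were called higher and 2083 to 2582 lower. The labels name no pairing of libraries by replicate number. Same-numbered libraries correlated at 0.109, -0.127, 0.419, 0.254 and -0.248 after subtracting group means. Of the 5 fibrosis libraries, 3 correlated best with the control of their own number. These correlations do not decide whether the numbers pair the libraries. A replicate block gave 2677 higher and 2534 lower. With so few Saa3 counts in control (7 to 30 per library), its ratio between groups is imprecise.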

Other observations

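Mzb1, a chaperone gene of marginal zone B cells and plasma cells, and Cr2, the complement receptor of the same B cells, were higher in fibrosis by 0.58 and 1.32 on the log2 scale (adjusted p = 0.000353 and 3.7e-05 by edgeR). Their values without fibrosis 4 and 5 were 0.61 and 1.44. Of 14 tested B cell genes, 7 were called higher and 0 lower, and 13 were called higher and 0 lower without fibrosis 4 and 5, the libraries with the most Saa3. Over all tested genes the shares were 18.6% and 17.2%, and without fibrosis 4 and 5 the counts were 2688 higher and 2743 lower. The summed B cell list was 33140, 34180, 28430, 23230 and 23070 CPM in fibrosis libraries 1 to 5 and 21520 to 23900 CPM in control, so fibrosis 4 and 5 lay within the control range and the other fibrosis libraries above it.

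Of 12 tested dendritic cell genes, 7 were called higher and 0 lower, and their sum did not overlap between groups, at 1603 to 1915 CPM in fibrosis and 1240 to 1393 CPM in control. Of 13 tested erythroid genes, 0 were called higher and 8 lower, beside 18.6% and 17.2% over all tested genes. Without fibrosis 4 and 5, 12 were called lower, in a fit that called 2743 of all tested genes lower. The erythroid sum was 1830, 975, 2165, 7770 and 3377 CPM in fibrosis libraries 1 to 5 and 3869 to 6294 CPM in control, so fibrosis 4 lay above every control and the other fibrosis libraries below. Epor, the erythropoietin receptor gene, was at -1.97 on the log2 scale (adjusted p = 0.000162 by edgeR). Of 12 tested T and NK cell genes 3 were called higher and 0 lower, and of 7 plasma cell genes 1 was called higher and 1 lower.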
